A study of Mus musculus with 20 samples.

Results

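The comparison described here is between the inbred mouse strains NOD and B6 when the gene Aire has been knocked out in both. It rests on the 3 NOD Aire knockout (KO) mice and the 3 B6 Aire KO mice of a series of 20 arrays, all chosen by their sample titles, and covers 45037 probe sets, of which 1 per gene stands for 18193 genes. RNA came from medullary thymic epithelial cells of individual male mice aged 3 to 4.5 weeks, sorted by flow cytometry. The gate took cells without the haematopoietic marker CD45 that bound the epithelial antibody G8.8, had an intermediate Ly51 signal and carried much MHC class II. The same cells of 3 NOD and 3 B6 Aire wild-type (WT) mice gave the strain difference with Aire intact. The difference between 4 Aire KO and 4 WT mice of the BALB strain served to choose Aire-dependent probe sets. The labels give no knockout allele and no number of backcross generations, and they do not say which mice were littermates. All values below are log2 intensities from the arrays, differences are NOD minus B6 with their standard error (SE), and a difference is called where its Benjamini-Hochberg adjusted p over all probe sets, from limma, is under 0.05.

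Medullary thymic epithelial cells present the body's own proteins to developing T cells, and Aire is the transcriptional regulator through which they express many genes of peripheral organs. NOD mice develop spontaneous autoimmune diabetes and B6 mice do not, and the strains carry different MHC haplotypes and many sequence differences elsewhere in the genome. A strain difference seen with Aire intact can concern the genes that Aire switches on or genes that these cells express without it, and mice of both strains that lack Aire show which differences remain.

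The labels were checked first. The Aire probe set read 11.89, 12.04 and 11.80 in NOD KO mice 1, 2 and 3, against 11.55, 11.49 and 11.56 in B6 KO mice 1, 2 and 3, with 11.45, 11.16 and 10.96 in NOD WT mice, against 10.81, 10.74 and 10.65 in B6 WT mice. It was thus detected at a high level in all 12 mice and read no lower in the KO mice of either strain, so that it checks nothing about the genotype. The labels do not say whether the probes match the part of the gene that the knockout removes, and KO below means labelled KO. The Aire difference between the KO strains, 0.38 ± 0.26, was not called (adjusted p = 0.421). Nnt, a mitochondrial transhydrogenase partly deleted in some B6 substrains, read 9.62, 9.46 and 9.81 in NOD KO mice, against 8.48, 7.38 and 7.74 in B6 KO mice, and the difference was called (1.76 ± 0.24, adjusted p = 7.78e-05). H2-Ea, the MHC class II chain that neither the B6 nor the NOD haplotype produces, read 9.38, 9.11 and 9.10 in NOD KO mice, against 9.46, 9.21 and 9.18 in B6 KO mice, and 12.33 ± 0.16 (SD, n = 4) in BALB KO mice. A dimmer H2-Ea probe set was called 0.96 higher in NOD KO mice.

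The 3 B6 KO arrays were not alike. B6 KO mice 2 and 3 were the most similar pair among all arrays (Pearson r = 0.996 over probe sets), and the difference between the 3' and 5' control probe sets of Gapdh, a measure of how much of each transcript was copied, was 1.68 and 1.84 in these mice, against 2.91 in B6 KO mouse 1. It was 2.49, 2.19 and 2.15 in the NOD KO mice. The submitters' sample codes fall into 4 runs whose meaning the labels do not give. NOD KO mouse 1 and B6 KO mouse 1 share a run, B6 KO mice 2 and 3 lie in another and NOD KO mice 2 and 3 in yet another, so for the remaining mice strain and run cannot be told apart. The difference between the 2 mice of the shared run is given below as the run pair, a value with no test and not independent of the comparison. Markers of dendritic cells and macrophages averaged 7.95, 8.83 and 9.40 in NOD KO mice, against 7.86, 8.19 and 8.02 in B6 KO mice, with 1 of 15 markers called higher and none lower. B cell markers averaged 7.71, 7.78 and 8.05 in NOD KO mice and 7.41, 7.66 and 7.50 in B6 KO mice, with 1 of 9 called higher. In RNA of sorted cells, fewer cells of a type and less RNA per cell cannot be told apart.

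**Figure D1:**
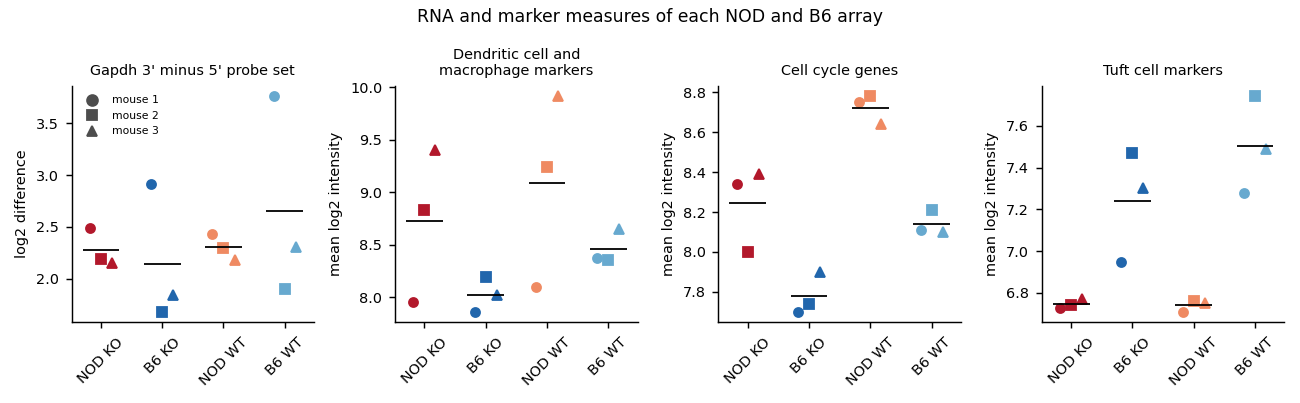
Each point is 1 mouse (circle, square and triangle for mice 1, 2 and 3) and the line is the mean of 3 mice, for NOD KO, B6 KO, NOD WT and B6 WT from left to right. The y axes give the log2 difference of the Gapdh 3' and 5' control probe sets and the mean log2 intensity of 3 gene lists. B6 KO mice 2 and 3 have the lowest Gapdh differences (1.68 and 1.84), NOD KO mouse 3 has the highest dendritic cell and macrophage markers of the KO mice (9.40), and all NOD mice lie below all B6 mice for tuft cell markers.

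Without Aire the strains differed at 4514 of 45037 probe sets (10%), of which 1883 (4.18%) were higher and 2631 (5.84%) lower in NOD KO mice. At 2-fold or more, 732 were higher (1.63%) and 1062 lower (2.36%), and at 8-fold or more 30 were higher and 46 lower. Among the 18193 genes, 892 were called higher (4.9%) and 1298 lower (7.13%), in all 2190 (12%), and 873 of them differed by 2-fold or more (4.8%). For 2149 of the 2190 called genes the NOD KO and B6 KO mice did not overlap, so a lack of overlap adds little to a call. The median difference over all probe sets was 0.01. These counts leaned on B6 KO mice 2 and 3. Without them, and with the lone B6 KO mouse assumed to vary like the other groups, 800 probe sets were called, 769 of them shared with the full comparison. In the run pair, 98.6% of the 4514 called probe sets had the same sign, and 52% of those called at 2-fold or more differed by 2-fold or more there too, against 3.16% of all probe sets. Both mice of the run pair took part in the calls, so these shares were largely given by the choice of probe sets. Without B6 KO mouse 1, 7685 probe sets were called. Leaving out B6 KO mouse 2 or 3 left 2153 or 2167 calls, and leaving out NOD KO mouse 2 or 3 left 2761 or 2503.

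With Aire intact, NOD WT and B6 WT mice differed at 3172 probe sets (7.04%), 1141 of them higher (2.53%) and 2031 lower (4.51%) in NOD. Among genes 1583 were called (8.7%), 437 higher (2.4%) and 1146 lower (6.3%). The same-numbered NOD WT and B6 WT mice deviated weakly together (correlations of 0.15, 0.14 and 0.25), and with the replicate number as a block 1077 probe sets were called. B6 WT mice 2 and 3 lie in the run of B6 KO mice 2 and 3, and NOD WT mice 2 and 3 in that of NOD KO mice 2 and 3. B6 WT mouse 1 has no code, and no NOD WT mouse is known to share a run with a B6 WT mouse. A run difference would thus enter both strain comparisons, and for shared differences too strain and run cannot be told apart. In both genotypes, with the same sign, 1897 probe sets were called, which is 42% of the calls without Aire and 59.8% of the calls with Aire. Of these persisting differences 700 were higher and 1197 lower in NOD. At 2-fold or more in both genotypes there were 263 higher and 515 lower. Called only without Aire were 2613 probe sets. Most of these showed the same direction in WT mice (2469 of 2613), and only 34, or 1.3%, also passed the test of whether the strain difference itself changed between the genotypes. The test of a changed strain difference passed at 79 probe sets (0.175%), and 1941 had an unadjusted p under 0.05. Of the 79, 51 (0.113% of all) had a higher NOD minus B6 difference in KO than in WT mice, and 28 (0.0622%) a lower one. Same-numbered KO and WT mice of a strain deviated together in NOD (0.67, 0.31 and 0.61) and in 2 of 3 numbers in B6 (0.78, 0.72 and -0.13). With strain and mouse number as a block the test passed at 726 probe sets, among them 249 (9.53%) of the 2613 called only in KO mice, and 648 differences persisted with the number as a block in each genotype. Under either fit, most calls in KO mice alone were not shown to differ from the strain difference in WT mice. Opposite signs with both differences called were found for 4 genes. Apoh and 6330403K07Rik are given below, Serpinb1b read 0.96 in KO and -0.50 in WT mice, and AU015791 read 0.44 and -0.46.

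**Figure D2:**
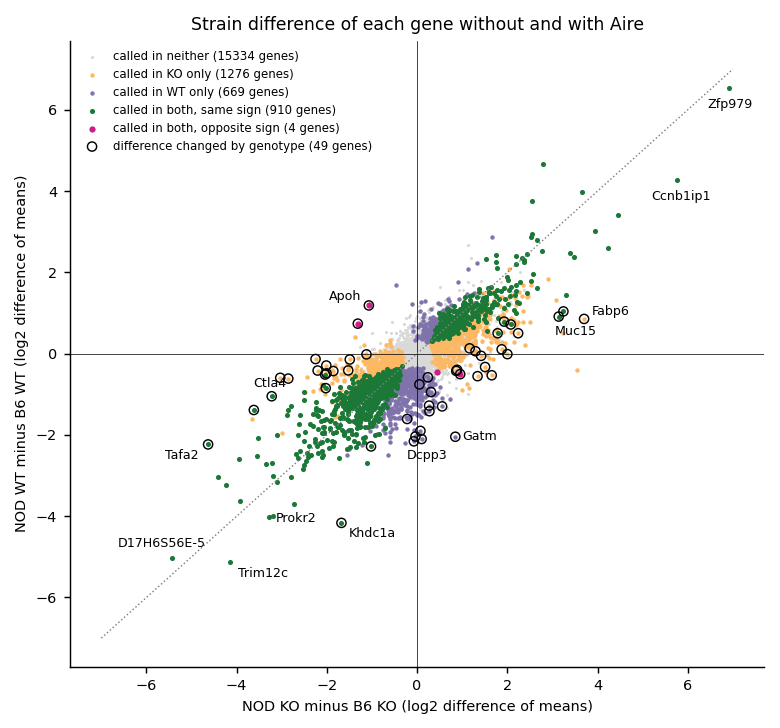
Each point is 1 of 18193 genes. The x axis is the log2 difference NOD KO minus B6 KO and the y axis NOD WT minus B6 WT, with colours for the calls in KO and WT mice, circles for genes whose strain difference changed with genotype, and a dotted line of equality. Zfp979 at the top right and D17H6S56E-5 at the bottom left lie near the line, Fabp6, Muc15 and Ctla4 lie closer to the x axis than to the line, and Dcpp3 and Gatm lie near or right of 0 on the x axis with a difference below 0 on the y axis.

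Among persisting differences the largest rise was that of Zfp979, a zinc finger gene. It read 10.64, 10.40 and 10.46 in NOD KO mice 1, 2 and 3, against 3.83, 3.48 and 3.44 in B6 KO mice 1, 2 and 3. The groups lay far apart, a 121-fold difference (6.92 ± 0.19, adjusted p = 1.11e-13), and in WT mice the difference was 6.55. BALB KO mice read 3.90 ± 0.27, close to the B6 level. Zfp982, another zinc finger gene in the same group of neighbouring genes, read 8.65, 8.58 and 8.27 in NOD KO mice, against 5.86, 5.91 and 5.78 in B6 KO mice, with 8.35, 8.35 and 7.88 in NOD WT mice, against 5.40, 5.11 and 5.72 in B6 WT mice. All 6 NOD mice lay above all 6 B6 mice (2.65 ± 0.17 without and 2.79 ± 0.17 with Aire). Ccnb1ip1, a ubiquitin ligase of meiotic crossing over, read 11.07, 10.43 and 10.85 in NOD KO mice, against 5.10, 4.85 and 5.11 in B6 KO mice. It was 54.2-fold higher in NOD KO mice (5.76 ± 0.36, adjusted p = 7.86e-09) and 4.27 on the log2 scale in WT mice. Here BALB KO mice, at 11.28 ± 0.51, were at the NOD level.

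Ap1s3, a subunit of the AP-1 adaptor of vesicle coats, read 9.60, 9.40 and 9.45 in NOD KO mice, against 5.87, 4.48 and 4.75 in B6 KO mice. The difference was 4.45 ± 0.30 (21.9-fold) in KO and 3.40 in WT mice. Its neighbour Wdfy1 also rose (2.20 ± 0.23 in KO and 1.54 ± 0.23 in WT mice). Nefl, the light chain of neuronal neurofilaments, read 9.62, 9.65 and 9.12 in NOD KO mice, against 5.61, 4.84 and 5.23 in B6 KO mice, a rise of 4.24 ± 0.27 in NOD KO mice, with 2.59 in WT mice. A second probe set of Nefl gave 4.0 in KO mice. Tmsb10, an actin-binding peptide, read 11.001, 11.70 and 11.56 in NOD KO mice, against 9.36, 6.22 and 6.86 in B6 KO mice. B6 KO mouse 1 lay between the NOD mice and the other B6 mice (3.94 ± 0.66, adjusted p = 0.000762). The call was lost without B6 KO mice 2 and 3, where the difference was 2.06. In WT mice Tmsb10 averaged 11.63 ± 0.22 (SD, n = 3) in NOD, against 9.66, 6.91 and 9.27 in B6 WT mice 1, 2 and 3 (a difference of 3.01). B6 WT mouse 2 also had the lowest Gapdh difference of the B6 WT mice (1.90), so the B6 arrays were split in both genotypes. The defensin Defa31, one of a family of nearly identical Paneth cell peptides, read 8.64, 9.79 and 9.42 in NOD KO mice, against 6.11, 6.72 and 6.67 in B6 KO mice. The difference was 2.78 ± 0.37 in KO and 4.66 ± 0.37 in WT mice, and BALB KO mice, at 10.73 ± 0.67, were nearer to NOD. E330020D12Rik rose too, with 7.63, 8.85 and 9.78 in NOD KO mice, against 5.22, 5.11 and 4.95 in B6 KO mice (3.66 ± 0.53).

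The largest persisting fall was that of D17H6S56E-5, whose neighbour in gene order is Vars, the valyl-tRNA synthetase gene of the MHC region. D17H6S56E-5 read 7.83, 7.65 and 7.91 in NOD KO mice 1, 2 and 3, against 13.22, 13.23 and 13.22 in B6 KO mice 1, 2 and 3, and 8.05, 8.16 and 7.99 in NOD WT mice, against 13.22, 13.16 and 12.93 in B6 WT mice. All NOD mice lay about 5 log2 units below all B6 mice, a 43.1-fold difference without Aire (-5.43 ± 0.11, adjusted p = 5.42e-16), and its other probe set gave -7.22. BALB KO mice read 12.86 ± 0.14, at the B6 level. Trim12c, a member of the TRIM family of antiviral ubiquitin ligases, read 4.39, 4.48 and 4.14 in NOD KO mice, against 8.39, 8.498 and 8.54 in B6 KO mice. NOD mice were near the bottom of the scale in both genotypes (-4.14 ± 0.17 in KO and -5.14 ± 0.17 in WT mice). Trim12c's dimmer probe set gave -0.30 and was not called.

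Prokr2, a receptor for prokineticins, read 9.46, 9.44 and 8.53 in NOD KO mice, against 12.54, 12.42 and 12.34 in B6 KO mice, with 7.35, 7.66 and 6.90 in NOD WT mice, against 11.46, 10.98 and 11.51 in B6 WT mice. Its difference was -3.29 ± 0.22 without and -4.01 ± 0.22 with Aire, and its other probe set gave -3.93 in KO mice. In both strains and in BALB the KO mice read higher than the WT mice (BALB KO 12.21 ± 0.08, BALB WT 10.89 ± 0.13). Pcdh17, a protocadherin of neuronal contacts, read 5.63, 5.77 and 5.99 in NOD KO mice, against 9.05, 8.77 and 9.15 in B6 KO mice, and the thyroid hormone-binding protein Crym read 4.70, 4.45 and 4.85 in NOD KO mice, against 7.56, 7.87 and 7.91 in B6 KO mice. Neither gene had overlapping groups (-3.20 ± 0.16 and -3.11 ± 0.21), and the WT differences were -4.001 and -3.16.

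Car8, a carbonic anhydrase relative expressed in cerebellar Purkinje cells, read 4.14, 4.23 and 4.34 in NOD KO mice, against 7.47, 8.74 and 8.30 in B6 KO mice. The fall (-3.93 ± 0.42) was called in WT mice too (-3.62), but 2 dimmer probe sets of Car8 gave 0.09 and -0.45 in KO mice. Tspan8, a tetraspanin of gut epithelium, fell (-4.24 ± 0.38, and -3.23 in WT mice), while its 4 dimmer probe sets gave -0.16 to -0.56, none of them called in KO mice. Ripply2, a transcriptional corepressor of somite formation, read 4.09, 4.02 and 4.02 in NOD KO mice, against 9.47, 7.63 and 8.30 in B6 KO mice. The NOD mice were uniform at about 4 and the B6 mice spread over almost 2 units, and the difference was -4.42 ± 0.53, with -5.38 in the run pair.

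**Figure D3:**
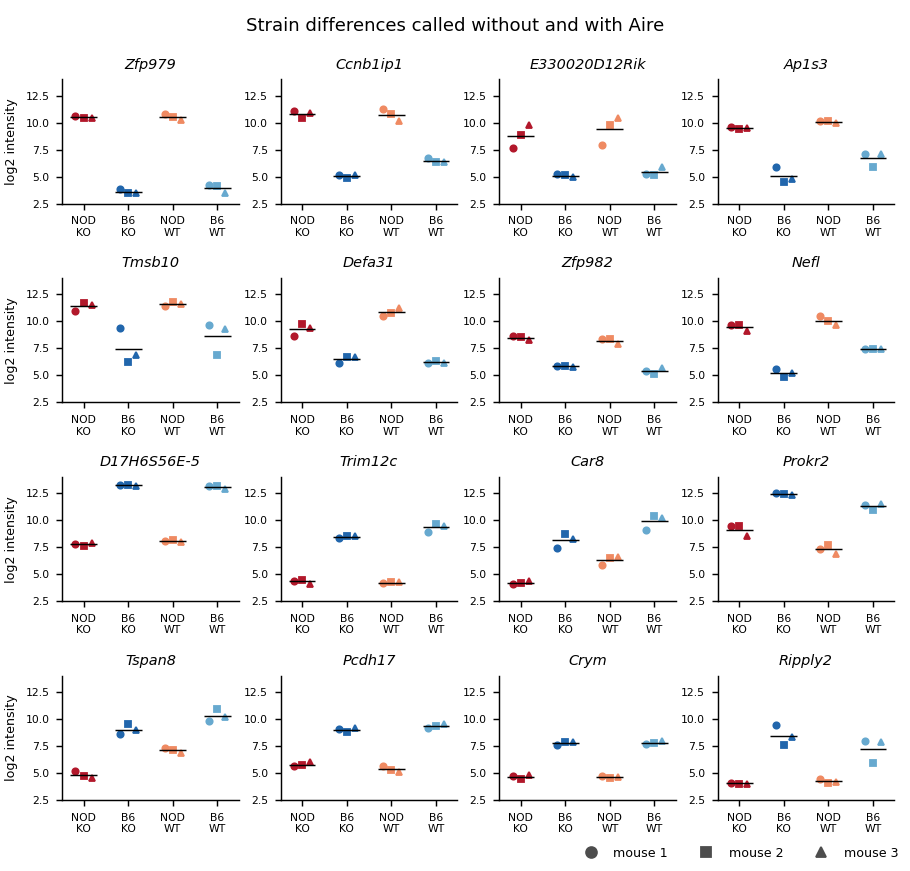
Each panel is 1 gene called in both genotypes, and each point is the log2 intensity of 1 mouse (circle, square and triangle for mice 1, 2 and 3), with the group mean as a line and NOD KO, B6 KO, NOD WT and B6 WT from left to right. In the 8 genes of the upper rows both NOD groups lie above both B6 groups, and in the 8 genes of the lower rows below them, with Zfp979 (a difference of 6.92) and D17H6S56E-5 (-5.43) the widest.

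Other genes were among the 12 largest rises or falls without Aire. Mmrn2, an extracellular matrix protein of blood vessels, read 10.11, 10.65 and 10.23 in NOD KO mice, against 8.03, 6.29 and 6.23 in B6 KO mice (3.48 ± 0.41, with 2.38 in WT mice). Irak1bp1, a binding partner of the kinase IRAK1, was 10.6-fold higher in NOD KO mice (3.40 ± 0.20) with a WT difference of 2.47, and Cnmd, the cartilage glycoprotein chondromodulin, was 9.80-fold higher (3.29 ± 0.35) with a WT difference of 1.44. Rnase2a, an eosinophil-associated ribonuclease, read 7.24, 10.38 and 10.27 in NOD KO mice, against 5.80, 5.82 and 5.62 in B6 KO mice. NOD KO mouse 1 was the closest to the B6 mice, the call (adjusted p = 0.0044) was lost without B6 KO mice 2 and 3 (adjusted p = 0.18), and the difference in WT mice was -0.41.

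Among the falls, Tfap2b, the transcription factor AP-2 beta, read 5.28, 5.69 and 5.19 in NOD KO mice, against 9.46, 9.13 and 9.40 in B6 KO mice (-3.94 ± 0.22, with -2.60 in WT mice and -3.01 from its other probe set in KO mice). S100a3, a calcium-binding protein of hair cuticle, read 7.02, 7.23 and 7.22 in NOD KO mice, against 10.03, 10.73 and 10.73 in B6 KO mice (-3.34 ± 0.27, with -2.72 in WT mice). A lack of overlap between the KO groups was a condition for these largest rises and falls. Chil4, a secreted chitinase-like protein, read 5.43, 7.001 and 6.49 in NOD KO mice, against 9.28, 10.38 and 9.88 in B6 KO mice, and B3galt2, a galactosyltransferase, read 3.64, 3.45 and 3.33 in NOD KO mice, against 5.72, 7.56 and 7.70 in B6 KO mice. B6 KO mouse 1 was the lowest B6 mouse for both, and the differences were -3.54 ± 0.45 and -3.52 ± 0.46. Mndal, an interferon-inducible nuclear protein of the p200 family, read 6.34, 7.24 and 8.26 in NOD KO mice, against 10.31, 11.15 and 11.36 in B6 KO mice. It was called (-3.66 ± 0.54, adjusted p = 0.000205), but not without B6 KO mice 2 and 3 (adjusted p = 0.0616). Of the 12 largest rises 10 were still called without these mice, and of the 12 largest falls 11.

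The strain difference changed with genotype in 49 genes (0.269%), of which 34 had the larger difference without Aire, 18 of them higher and 16 lower in NOD KO mice. The widest change among these was that of Fabp6, the bile acid-binding protein of the ileum. Fabp6 read 10.92, 11.03 and 10.74 in NOD KO mice 1, 2 and 3, against 8.14, 6.55 and 6.88 in B6 KO mice 1, 2 and 3, and 10.77, 10.57 and 10.59 in NOD WT mice, against 10.20, 8.82 and 10.33 in B6 WT mice. The B6 KO mice were the lowest group. The difference of 3.70 ± 0.36 (13.0-fold, adjusted p = 2.32e-06) was 0.85 in WT mice (adjusted p = 0.195), a change of 2.85 ± 0.51 (adjusted p = 0.0262). Muc15, a membrane mucin, read 9.80, 10.07 and 9.95 in NOD KO mice, against 6.44, 7.30 and 6.67 in B6 KO mice, with 10.34, 10.29 and 10.36 in NOD WT mice, against 9.32, 9.75 and 9.18 in B6 WT mice. Again the B6 KO mice stood below the other 3 groups (3.14 ± 0.22 without and 0.91 ± 0.22 with Aire, change 2.23 ± 0.31, adjusted p = 0.00386), and BALB KO mice, at 9.78 ± 0.36, lay near the NOD KO level.

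Aldh1a2, which makes retinoic acid, read 6.77, 7.02 and 7.37 in NOD KO mice, against 5.22, 5.36 and 4.95 in B6 KO mice and averaged 7.96 ± 0.47 in NOD WT mice and 7.86 ± 0.19 in B6 WT mice (SD, n = 3 each). The WT strains overlapped, and the KO strains did not (change 1.77 ± 0.31, adjusted p = 0.0218). Sycp2l, a protein of oocyte chromosomes, read 6.80, 6.30 and 6.39 in NOD KO mice, against 4.41, 4.07 and 5.01 in B6 KO mice, and its chromosomal neighbour Elovl2, an elongase of long-chain fatty acids, read 6.59, 6.72 and 6.53 in NOD KO mice, against 5.06, 4.72 and 5.09 in B6 KO mice. Both were lower in B6 KO mice than in the other 3 groups (changes of 2.02 ± 0.38 and 2.19 ± 0.38).

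For a second kind of gene the NOD KO mice stood above the rest. Ankrd44, a regulatory subunit of a protein phosphatase, read 10.29, 10.59 and 9.76 in NOD KO mice, against 6.77, 7.03 and 7.11 in B6 KO mice and averaged 9.04 ± 0.48 in NOD WT mice and 7.996 ± 0.34 in B6 WT mice (change 2.21 ± 0.39). Krt79, a keratin, read 12.07, 11.94 and 11.82 in NOD KO mice, against 10.46, 10.85 and 10.51 in B6 KO mice and averaged 10.65 ± 0.15 in NOD WT mice and 11.21 ± 0.36 in B6 WT mice (change 1.90 ± 0.34). Serpina9, a serine protease inhibitor of germinal centre B cells, read 9.73, 10.08 and 9.90 in NOD KO mice, against 8.30, 8.42 and 8.48 in B6 KO mice and averaged 7.29 ± 0.20 in NOD WT mice and 7.62 ± 0.17 in B6 WT mice (change 1.84 ± 0.32).

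Among the 16 genes lower in NOD KO mice, Ctla4, the inhibitory receptor of T cells and a candidate gene of a diabetes locus of NOD mice, read 7.59, 7.40 and 6.93 in NOD KO mice 1, 2 and 3, against 10.20, 10.82 and 10.58 in B6 KO mice 1, 2 and 3. In WT mice it read 6.94, 6.39 and 6.76 in NOD WT mice, against 7.38, 7.94 and 7.91 in B6 WT mice. The B6 KO mice were the high group. The difference was -3.22 ± 0.20 without Aire (9.34-fold, adjusted p = 6.67e-09) and -1.05 ± 0.20 with Aire (adjusted p = 0.00257), and the change was -2.17 ± 0.28 (adjusted p = 0.00205). BALB mice read 9.01 ± 0.14 in KO and 6.97 ± 0.15 in WT animals (SD, n = 4 each), so there too the KO mice were higher. In the sorted cells of the KO mice, thymocyte markers averaged 6.53 to 7.28 in NOD, against 6.59 to 6.77 in B6, and none of 11 was called. The part of other cells in the Ctla4 difference was not tested.

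Tafa2, a secreted peptide of neurons, read 5.80, 5.74 and 5.10 in NOD KO mice, against 10.13, 10.13 and 10.29 in B6 KO mice (-4.63 ± 0.29, against -2.23 ± 0.29 in WT mice). Dusp15, a phosphatase, read 6.18, 6.67 and 6.26 in NOD KO mice, against 8.77, 8.20 and 8.75 in B6 KO mice, with WT means of 6.41 ± 0.16 in NOD WT mice and 6.82 ± 0.19 in B6 WT mice. Prg3, a granule protein of eosinophils, read 7.66, 7.09 and 7.46 in NOD KO mice, against 9.48, 9.85 and 9.62 in B6 KO mice, with 9.50 ± 0.28 in NOD WT mice and 9.63 ± 0.32 in B6 WT mice. For Dusp15 the B6 KO mice were the high group, and for Prg3 the NOD KO mice were the low one (changes of -1.79 ± 0.28 and -2.12 ± 0.29).

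The uncharacterised genes 4833422C13Rik, 1700003P14Rik and 1700110I01Rik changed as well (-2.44 ± 0.26, -2.23 ± 0.36 and -2.24 ± 0.33). 4833422C13Rik read 2.92, 3.13 and 3.27 in NOD KO mice, against 5.87, 6.25 and 6.31 in B6 KO mice, and its NOD KO values lay below the 5th percentile of all values (3.77), so its fold is a ratio to a value near the bottom of the scale. The transcription factor Nkx6-2 read 6.35, 6.17 and 6.07 in NOD KO mice, against 7.97, 8.23 and 8.495 in B6 KO mice, with 5.96 ± 0.07 in NOD WT mice and 6.48 ± 0.07 in B6 WT mice (change -1.52 ± 0.20, adjusted p = 0.00228).

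The other 15 genes had the larger strain difference with Aire intact, 14 of them lower in NOD WT mice. Dcpp3, a secretory protein of salivary glands, read 7.13, 6.89 and 6.79 in NOD KO mice, against 7.22, 6.66 and 6.63 in B6 KO mice, and 7.19, 7.14 and 7.21 in NOD WT mice, against 9.34, 8.77 and 9.73 in B6 WT mice. Only the B6 WT mice were high. The KO difference was 0.10 ± 0.20 (adjusted p = 0.829), the WT difference -2.10 ± 0.20 and the change 2.20 ± 0.28 (adjusted p = 0.00205). The B6 WT mice were the highest group also for Spx, the peptide hormone spexin (-0.04 in KO and -2.04 in WT mice), for Omt2a, an oocyte transcript (-0.07 and -2.16), for Pramel27 of the Prame family of germ cells (0.07 and -1.90), and for Gatm, the first enzyme of creatine synthesis (0.85 and -2.05). In each of these 5 genes the KO difference was not called. Omt2a read 3.18, 3.16 and 3.01 in NOD KO mice, against 3.21, 3.16 and 3.19 in B6 KO mice. These lay below the 5th percentile of all values (3.77), where a strain difference could hardly be read. Pramel27 was little above it, with 4.06, 4.13 and 4.17 in NOD KO mice, against 4.10, 4.04 and 3.99 in B6 KO mice.

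Khdc1a, a KH-domain gene of oocytes and early embryos, kept part of its difference. It read 5.14, 5.39 and 5.24 in NOD KO mice, against 6.58, 7.18 and 7.04 in B6 KO mice, and 5.74, 5.72 and 5.89 in NOD WT mice, against 9.33, 10.44 and 10.06 in B6 WT mice, so that it was lower in NOD in both genotypes (-1.68 ± 0.23 and -4.17 ± 0.23). Apoh, a plasma glycoprotein of the liver, had opposite differences, with 6.82, 6.73 and 6.85 in NOD KO mice, against 7.83, 7.88 and 7.90 in B6 KO mice and 9.59, 8.71 and 8.76 in NOD WT mice, against 7.76, 7.88 and 7.86 in B6 WT mice. The NOD WT mice were above, and the NOD KO mice below, both B6 groups (-1.07 ± 0.21 without and 1.19 ± 0.21 with Aire). 6330403K07Rik also had opposite differences (-1.31 ± 0.21 and 0.74 ± 0.21).

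Alternatives were run for 26 of the 29 named genes that passed this test (not for Gstm5, Gstm6 and Nts), and all 26 also passed it with strain and mouse number as a block, with the Gapdh measure as a covariate and with the mean of the dendritic cell and macrophage markers as a covariate. Without B6 KO mice 2 and 3 the change test passed for 5 of the 26, namely Muc15, 4833422C13Rik, Khdc1a, Spx and Chga, and for 13 probe sets in all.

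**Figure D4:**
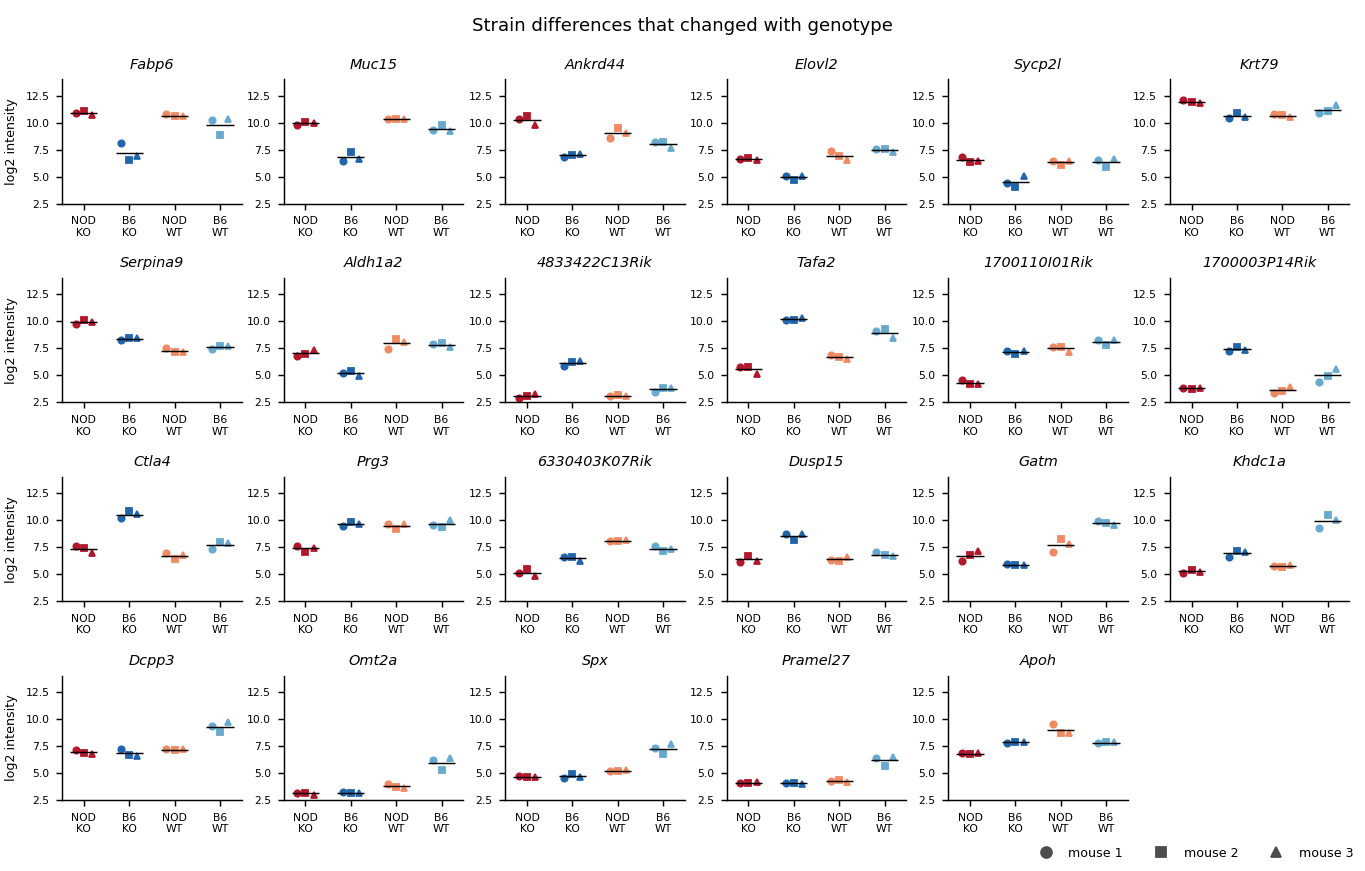
Each panel is 1 gene whose strain difference passed the test of a change between genotypes, and each point is the log2 intensity of 1 mouse (circle, square and triangle for mice 1, 2 and 3), with the group mean as a line and NOD KO, B6 KO, NOD WT and B6 WT from left to right. The first 8 genes, from Fabp6 to Aldh1a2, are higher in NOD KO than B6 KO mice, the next 8, from 4833422C13Rik to Dusp15, are lower, and the last 7, from Gatm to Apoh, have the larger difference among WT mice.

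Aire-dependent genes were chosen on the BALB mice, which are in neither group. Lower by 2-fold or more in BALB KO than BALB WT mice, and called, were 828 probe sets. Without Aire, 118 of them (14.3%, against 10% of all probe sets) differed between NOD and B6, 58 higher and 60 lower in NOD KO mice, with a median difference of 0.06. With Aire, 179 (21.6%, against 7.04%) differed, 28 higher and 151 lower in NOD WT mice, with a median of -0.26. With 1 NOD or B6 mouse of either genotype left out in turn, 38 to 74 were higher and 40 to 63 lower in KO mice, and 18 to 27 were higher and 102 to 155 lower in WT mice. The strain difference changed at 24 of the 828 probe sets (2.9%, against 0.175%). For 22 of them the NOD minus B6 difference was higher in KO than in WT mice, and these were 4 to 22 with 1 mouse left out. Such a change upwards need not be a rise in NOD KO mice, since for Spx the B6 WT mice were the high group. Without B6 KO mice 2 and 3 the calls in KO mice were 15 higher and 22 lower (4.47%, against 1.78%), and 3 changed upwards.

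A reverse set, added after its values were seen, held 165 probe sets that were 2-fold or more higher in BALB KO than BALB WT mice. Of these, 80 were lower and 9 higher in NOD KO than in B6 KO mice (53.9% called, against 10% of all probe sets). In NOD WT mice 45 were lower and 5 higher (30.3%, against 7.04%). Without B6 KO mice 2 and 3, 32 were lower and 3 higher in KO mice (21.2%, against 1.78% of all probe sets). In terms of genes, 46 of 96 were lower and 6 higher in NOD KO mice (54.2% called, against 12% of all genes). Of the 46, 25 were lower in NOD WT mice too. Prokr2, Ctla4, B3galt2 and Dusp15, described above, were among them. Farp2, a guanine exchange factor, read 4.40, 4.99 and 4.76 in NOD KO mice, against 7.67, 7.51 and 7.61 in B6 KO mice, and Cyyr1 read 8.04, 7.79 and 7.75 in NOD KO mice, against 9.81, 10.56 and 10.33 in B6 KO mice. Neither had overlapping groups (-2.88 ± 0.29 and -2.37 ± 0.22). In the opposite direction, Plat, tissue plasminogen activator, read 11.25, 10.79 and 10.55 in NOD KO mice, against 7.84, 9.16 and 8.93 in B6 KO mice (2.22 ± 0.36).

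Genes of peripheral organs were grouped in lists of tissue-restricted products. Over all genes 4.9% were called higher and 7.13% lower without Aire, and 2.4% higher and 6.3% lower with Aire, and the counts below stand against these shares. Without Aire most of these lists were near that background, with medians near 0. For intestine 6 of 20 genes fell and 1 rose (35% called, against 12% of all genes), with a median of -0.44. Without B6 KO mice 2 and 3 the counts were 2 and 1. Besides Fabp6, the liver-type fatty acid-binding protein Fabp1 read 5.77, 6.43 and 6.15 in NOD KO mice, against 7.84, 7.68 and 7.91 in B6 KO mice (-1.69 ± 0.28), the antimicrobial lectin Reg3g fell (-1.65 ± 0.20), and so did Vil1, the villin of microvilli (-1.37 ± 0.22), and Fcgbp, a mucus protein (-1.39 ± 0.37). For Fcgbp, B6 KO mouse 1 lay near the NOD mice, with a difference of -0.33 in the run pair. Apoa1, an apolipoprotein, and Reg3b, another lectin, completed the falls (-0.88 ± 0.24 and -1.31 ± 0.40), and in NOD WT mice 6 of the 20 genes fell and none rose.

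For liver 4 of 22 genes fell and 1 rose in NOD KO mice, and 6 fell and 2 rose in NOD WT mice. Ttr, the thyroid hormone carrier transthyretin, read 7.86, 5.81 and 7.13 in NOD KO mice, against 9.25, 9.08 and 9.28 in B6 KO mice (-2.27 ± 0.43), and the acute phase protein Crp rose (1.65 ± 0.31). NOD KO mouse 2 was the lowest for Ttr, and without B6 KO mice 2 and 3 no liver gene was called. Of 12 lung genes 2 fell, among them Bpifa1, an airway secretory protein, whose NOD KO mice spread over 4.89, 7.90 and 9.34, against 9.78, 11.02 and 10.34 in B6 KO mice (-3.01 ± 0.77). Of 20 pancreas genes 2 fell and 1 rose, among them the trypsin inhibitor Spink1 (-1.93 ± 0.31). Among salivary and lacrimal genes, 1 of 13 fell without Aire, against 4 lower and 1 higher with Aire. It was the kallikrein Klk1b16 (-2.79 ± 0.32), one of a family of similar sequences. In milk, male accessory gland and kidney lists 1 gene each fell, the casein Csn3 (-1.70 ± 0.24), the defensin Defb1 (-1.62 ± 0.21) and the transporter Slc12a1 (-1.13 ± 0.23). Ctse, a protease of the gastric mucosa, was the 1 fall among 12 stomach genes (-0.63 ± 0.17), but its dimmer probe set was called higher by 3.06 (and 3.33 in WT mice), so that its direction is not settled. The 1 rise among 14 endocrine genes was Tshb, a chain of thyrotropin (0.95 ± 0.23). No gene was called among 17 of testis and 13 of retina.

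In the brain list 2 of 19 genes rose and 1 fell. Nefl and its neighbour Nefm, the medium neurofilament chain (2.51 ± 0.36), both rose, and Mbp, a myelin protein, fell (-0.50 ± 0.14). Of 19 striated muscle genes 2 rose and 2 fell. The heavy myosin chain Myh7 was higher (1.30 ± 0.28) and the troponin Tnnt2 lower (-1.06 ± 0.22).

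Islet hormones and autoantigens, the targets of NOD autoimmunity, counted 2 rises and 3 falls among 20 genes (25% called, against 12%), and 1 rise and no fall without B6 KO mice 2 and 3. Chga, chromogranin A, a granule protein from which an antigen of diabetogenic NOD T cells derives, read 9.34, 9.39 and 9.32 in NOD KO mice 1, 2 and 3, against 7.27, 7.78 and 7.65 in B6 KO mice 1, 2 and 3. The WT values were 9.02, 8.69 and 8.91 in NOD WT mice, against 8.22, 8.35 and 8.55 in B6 WT mice. NOD mice were higher in both genotypes, and more so without Aire (1.79 ± 0.13 in KO, adjusted p = 4.18e-08, against 0.50 ± 0.13 in WT mice), a change of 1.28 ± 0.18 (adjusted p = 0.00411). Gcg, glucagon, read 8.003, 8.496 and 7.79 in NOD KO mice, against 6.49, 6.37 and 6.62 in B6 KO mice, without overlap (1.60 ± 0.27), and showed -0.11 in WT mice. Its change between genotypes was not called (adjusted p = 0.0929). Ica1, islet cell autoantigen, Ptprn2, a granule phosphatase, and Scg5, a secretory chaperone, were lower in NOD KO mice (-0.84 ± 0.14, -1.05 ± 0.19 and -0.98 ± 0.30).

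Genes proposed for type 1 diabetes loci counted 1 rise and 2 falls among 22 (13.6% called, against 12%). Besides Ctla4 they were Tnfrsf1b, a TNF receptor, and the cytokine Il10. Tnfrsf1b read 8.02, 8.64 and 8.31 in NOD KO mice, against 7.07, 7.40 and 7.37 in B6 KO mice (1.04 ± 0.21), but its dimmer probe set gave 0.03 and was not called. Il10 read 7.09, 7.27 and 7.75 in NOD KO mice, against 8.18, 8.30 and 8.18 in B6 KO mice (-0.85 ± 0.19). All 3 were called with the same sign in WT mice, and without B6 KO mice 2 and 3 1 of them was still called.

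In the antigen presentation lists, 1 MHC class I gene rose and 2 fell among 9, 1 class II gene rose and 2 fell among 11, and 2 processing genes rose and 2 fell among 17. Tapbp, tapasin, which loads peptides on class I, read 11.35, 11.72 and 11.44 in NOD KO mice, against 12.38, 12.48 and 12.53 in B6 KO mice, with 11.18, 11.50 and 11.55 in NOD WT mice, against 12.35, 12.40 and 12.38 in B6 WT mice. The strains were separate in both genotypes (-0.96 ± 0.11 without and -0.96 ± 0.11 with Aire). Tap2, a subunit of the peptide transporter, and the chaperone Calr were higher (0.68 ± 0.16 and 1.28 ± 0.37), and the lysosomal protease Ctsz was lower (-1.38 ± 0.31). H2-Ob and H2-Oa, the chains of the class II modulator H2-O, moved in opposite directions (0.50 ± 0.12 and -0.69 ± 0.21). H2-Aa, the alpha chain of the classical class II molecule, was called lower (-0.42 ± 0.13, adjusted p = 0.0498). Its dimmest probe set was called lower too (-1.05, and -1.5 in WT mice), but 2 further bright probe sets gave -0.17 and -0.11, neither called. Without B6 KO mice 2 and 3 the difference of the brightest probe set was -0.09. H2-Q10 and H2-Q2 fell (-2.12 ± 0.27 and -1.23 ± 0.18) and H2-T3 rose (0.68 ± 0.16). Class I genes are similar in sequence and differ between the haplotypes, so a single probe set cannot separate a change in level from a change in hybridisation. Glo1, a glyoxalase gene of the same chromosome, was higher (0.93 ± 0.14), with 2.08 from a second probe set and -0.08 and -0.09 from the others.

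Among 25 interferon-stimulated genes 3 rose and 2 fell without Aire, and 1 fell with Aire. Ifi27l2a read 9.49, 10.07 and 10.94 in NOD KO mice, against 8.15, 8.29 and 8.28 in B6 KO mice, and in the NOD KO mice it followed the order of the dendritic cell and macrophage markers (7.95, 8.83 and 9.40), as did Gbp2, a guanylate-binding GTPase (8.18, 9.996 and 10.05 in NOD KO mice, against 7.42, 7.50 and 7.62 in B6 KO mice). Neither was called without B6 KO mice 2 and 3 (adjusted p = 0.148 and 0.2), and the part of other cells in both was not tested. Gbp2 and Gbp6 were the 2 rises among 10 guanylate-binding and immunity-related GTPases, and Mndal the 1 fall among 6 p200 genes. In the Trim5-Trim30 cluster, 3 of 9 genes fell and 1 rose. Trim12a read 3.67, 3.67 and 3.56 in NOD KO mice, against 5.55, 6.84 and 6.67 in B6 KO mice, with BALB KO mice at 3.63 ± 0.13, like NOD, and its dimmer probe set gave -0.08. Trim30a fell (-1.26 ± 0.31) and Trim5 rose (1.07 ± 0.22). The dimmer probe set of Trim30a gave -0.48 in KO mice, not called, and 0.4 in WT mice. Trim12a and Trim12c are close copies, so their probe sets may share transcripts.

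Markers of mature medullary epithelium were read at a high level in both KO strains. Their median difference over 17 genes was 0.11, with 2 genes called higher and 3 lower. Cd40, a receptor of T cell help, rose (0.88 ± 0.20), and the claudin Cldn3 fell (-0.76 ± 0.18). Cd80, a costimulatory ligand, read 8.58, 8.61 and 8.21 in NOD KO mice, against 8.94, 10.49 and 10.31 in B6 KO mice. B6 KO mouse 1 lay near the NOD mice, and the call (adjusted p = 0.0338) was lost without the other B6 KO mice (adjusted p = 0.982). Dimmer probe sets of Cd80 gave -0.04, -0.09 and -0.01 in KO mice, none of them called. Tuft cell markers were lower in every NOD mouse, with means of 6.73, 6.74 and 6.77 in NOD KO and 6.95, 7.47 and 7.30 in B6 KO mice, and 6.71, 6.76 and 6.75 in NOD WT and 7.28, 7.74 and 7.49 in B6 WT mice. Of the 9 genes, 2 were called lower without Aire, the villin relative Avil (-1.04 ± 0.30) and the lipoxygenase Alox5 (-0.68 ± 0.18), against 7.13% of all genes, and none was called without B6 KO mice 2 and 3 (adjusted p = 0.977 and 0.635). Of 20 cornified epithelium genes 2 fell and 1 rose without Aire, with a median of -0.08, and 7 fell with Aire, with a median of -0.74, and for none of the 20 was the change between genotypes called. Sprr1b, a cornified envelope protein, was the rise, with 6.86, 7.62 and 7.31 in NOD KO mice, against 4.91, 5.61 and 5.86 in B6 KO mice (1.80 ± 0.22). Of 7 markers of immature medullary epithelium 1 rose and 2 fell, among them the transcription factor Trp63 (-0.86 ± 0.27). Dimmer probe sets of Trp63 gave -0.13, -0.31 and -0.21, none of them called.

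Ccl25, the chemokine that draws thymocyte precursors to thymic epithelium, read 10.01, 9.83 and 9.84 in NOD KO mice 1, 2 and 3, against 11.64, 12.40 and 12.34 in B6 KO mice 1, 2 and 3. All NOD mice were lower (-2.23 ± 0.25, adjusted p = 8.31e-06), as in WT mice (-1.20 ± 0.25). Among 25 chemokines 5 rose and 2 fell without Aire, where 4.9% of all genes rose and 7.13% fell. With Aire none rose and 5 fell, where 2.4% of all genes rose and 6.3% fell, and without B6 KO mice 2 and 3 none rose and 1 fell. Ccl8 read 7.30, 9.30 and 10.58 in NOD KO mice, against 7.20, 6.61 and 6.91 in B6 KO mice and Ccl5 read 10.99, 12.80 and 12.60 in NOD KO mice, against 10.96, 10.19 and 10.53 in B6 KO mice. NOD KO mouse 1 lay just above B6 KO mouse 1 for both, and NOD KO mice 2 and 3, with the higher dendritic cell and macrophage markers, were high for both. The run pair differed by 0.10 and 0.03. Enpep, a peptidase of cortical epithelium, was higher in NOD KO mice (1.42 ± 0.20) with no call in WT mice (-0.05 ± 0.20, change 1.47 ± 0.28, adjusted p = 0.0388). It and Ccl25 were the calls among 12 cortical genes.

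Cell cycle genes were higher in NOD KO mice in 5 of 19 cases (26.3%, against 12%), and none was lower. Their mean lay between 8.0 and 8.39 in NOD KO and between 7.7 and 7.9 in B6 KO mice. Rrm2, a subunit of ribonucleotide reductase, read 10.36, 10.09 and 10.64 in NOD KO mice, against 8.51, 7.67 and 8.03 in B6 KO mice (2.29 ± 0.40). Its dimmer probe sets gave 2.33, called, and 0.85, not called. Mcm5 and Mcm2, parts of the replicative helicase, rose as well (1.30 ± 0.32 and 0.46 ± 0.11). Dimmer probe sets gave 0.06 and 0.13 for Mcm5 and -0.14 for Mcm2, none of them called. In WT mice 3 of the 19 were higher, and without B6 KO mice 2 and 3 none was called. The median in the run pair was 0.57. Of 21 glutathione S-transferases 3 rose and 4 fell without Aire (33.3% called, against 12% of all genes), and 1 rose and none fell without B6 KO mice 2 and 3. With Aire 5 fell (8.7% of all genes were called). Gsta2 read 7.16, 7.74 and 7.81 in NOD KO mice, against 9.18, 9.62 and 9.48 in B6 KO mice (-1.86 ± 0.28), Gstt1 fell (-1.28 ± 0.21) and Gstk1 rose (0.93 ± 0.15). Gstm5 and Gstm6 rose (0.89 ± 0.18 and 0.87 ± 0.17) and passed the test of a change between genotypes (1.29 ± 0.25 and 1.29 ± 0.25). Of 23 transcription factors of epithelial lineages 4 fell and 1 rose, among them Foxa1 (-1.03 ± 0.22), Grhl1 (-1.03 ± 0.26) and Nkx6-2. Among 19 genes of costimulation 2 rose and 2 fell, including Cd70, a ligand of activated cells (1.14 ± 0.24). Among 17 genes of noncanonical NF-kB signalling 2 rose, including Traf1 (1.02 ± 0.20), and among 18 partners of Aire Parp1 rose and Atf7ip fell (1.26 ± 0.33 and -1.26 ± 0.20). Dimmer probe sets gave 0.62 for Traf1, -0.36, -0.02 and 0.07 for Parp1, and -0.21 and -0.35 for Atf7ip, none of them called. None of 16 dissociation stress genes and none of 9 metallothioneins and gasdermins was called. For other cell types, 1 of 9 fibroblast markers rose and 2 fell, 1 of 8 endothelial markers and 1 of 10 natural killer markers fell, and none of 4 red blood cell markers was called. Without B6 KO mice 2 and 3 no gene was called in the lists of mature and immature medullary epithelium, guanylate-binding and immunity-related GTPases, noncanonical NF-kB signalling, Aire partners, striated muscle, lung and fibroblasts.

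**Figure D5:**
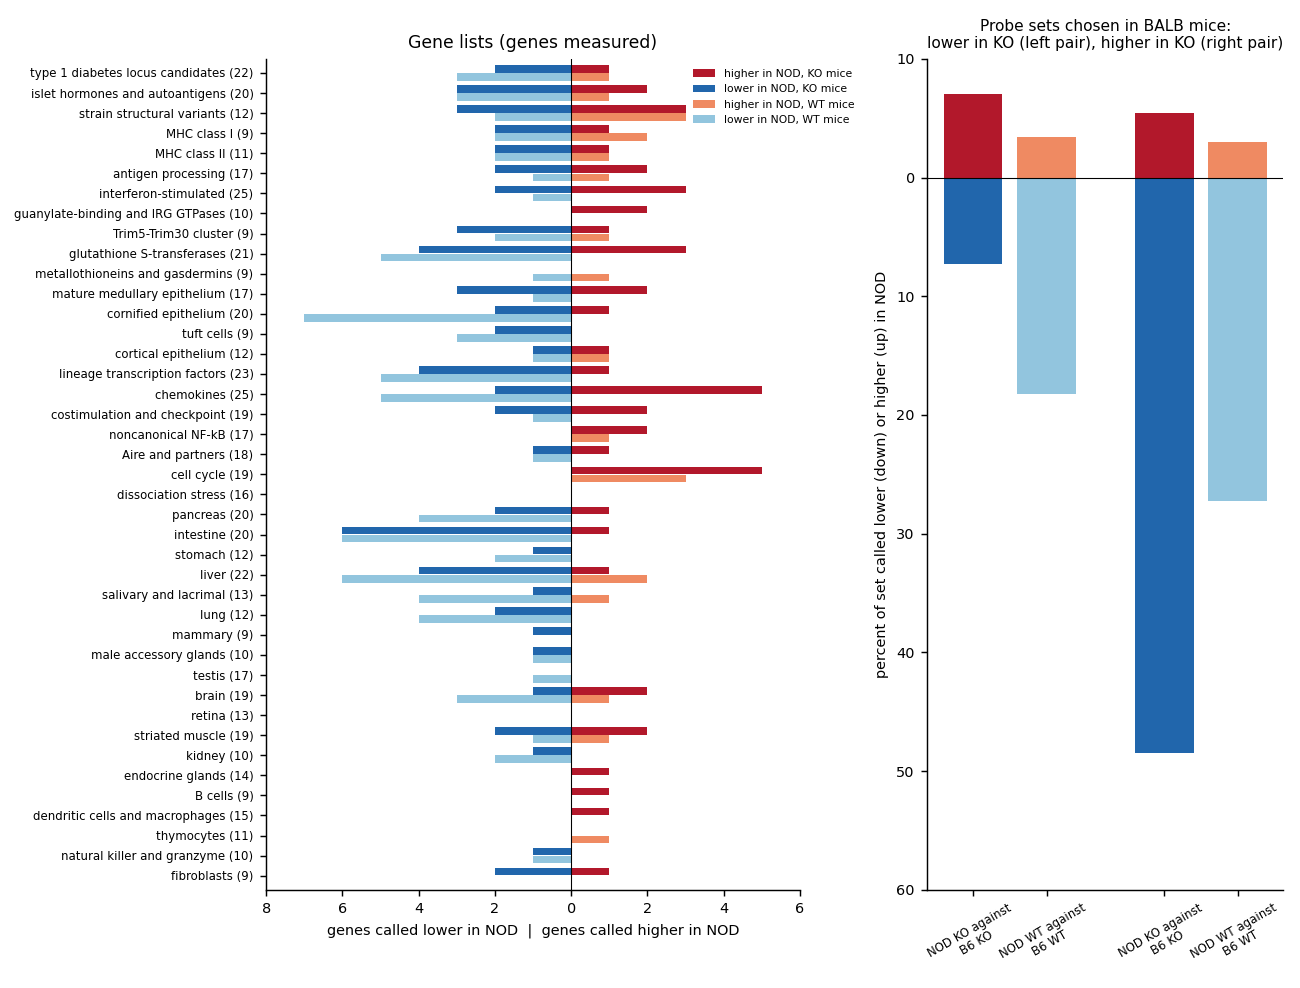
In the left panel each bar counts the genes of a list called higher (to the right) or lower (to the left) in NOD than in B6, in KO mice (dark) and WT mice (pale), for lists with 9 or more genes measured, whose number is in brackets. In the right panel the bars give the percent of probe sets called higher (up) or lower (down) in NOD among the 828 lower and the 165 higher in BALB KO mice. Intestine has 6 falls in both genotypes, cell cycle only rises, and in the right panel the left pair of bars stands for 58 higher and 60 lower of 828 in KO mice and 28 higher and 151 lower in WT mice.

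Some of the genes that differed by 2-fold or more without Aire stood next to each other. Of 18031 genes placed on chromosomes in RefSeq order (assembly GRCm38.p6, used for order only), 866 differed by 2-fold or more (4.8%). Of these, 141 (16.3%) had another such gene as the next measured gene on either side. A gene can have a neighbour on each side, so the 16.3% does not stand directly against the 4.8%. They formed 62 groups, 48 of 1 direction. The largest held 5 S100 genes, S100a1, S100a3, S100a13, S100a14 and S100a16, all lower in NOD KO mice, with log2 differences between -1.34 for S100a1 and -3.34 for S100a3. Other groups were Trim5, Trim12a, Trim12c and Trim30a, the eosinophil proteins Prg2 and Prg3 with Slc43a3 and P2rx3, Ifng with Dyrk2, Gm38403 and Cand1, and Ap1s3 with Wdfy1. Neighbouring genes are not independent, and no test was made of this.

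A gene's call often rested on 1 probe set. Among others, dimmer probe sets of Ccl25, Csn3, Slc12a1, Ptprn2 and Tapbp gave -0.09, -0.01, 0.05, 0.07 and -0.20 in KO mice, none of them called. Those of Ica1, Reg3b, Gbp2 and Gbp6 gave -0.36, -0.51, 0.78 and 0.54, with the sign of the call but not called themselves. The 873 genes that differed by 2-fold or more had 939 further probe sets, of which 730 (77.7%) had the same sign and 290 (30.9%) were also called with it, against 10% of all probe sets called in either direction. The opposite sign was called for 11, and these are given in the closing observations. The probe sequences were not used here, and for a single probe set a strain difference in transcript level and one in hybridisation cannot be told apart.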

How the data were processed

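Sorted medullary thymic epithelial cells of 20 mice were measured on Affymetrix arrays, 1 thymus per array, with RNA amplified in 2 rounds, per the labels' protocols. The deposited values are RMA intensities on a linear scale, per the submitters' processing notes. Neither the RMA version nor the set of arrays normalised together is stated. The median intensity of an array was 86.3 to 90.9, and precision is limited by the number of arrays.

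The log2 of these intensities was fitted with limma 3.58.1 (R 4.3.3) over 45037 probe sets, after 64 control probe sets were left out, as 6 group means with 14 residual degrees of freedom, so that all groups share 1 estimate of the spread. Contrasts were NOD KO minus B6 KO, NOD WT minus B6 WT and their difference, with a Benjamini-Hochberg adjusted p threshold of 0.05. The fit was tested on simulated data. Of 45037 probe sets, 34945 had 1 gene symbol, 932 several and 9160 none in the platform table, and the probe set with the highest mean stood for each of 18193 genes. Symbols were checked against RefSeq (GRCm38.p6), and none changed.

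Named were the 12 largest rises and falls, the 8 persisting and 8 changed genes with the largest values each way, 6 with the larger difference in WT mice, and up to 5 called members per list. The 12 each way were taken among called genes whose NOD KO and B6 KO mice did not overlap. The comparison and its 45 lists (604 genes measured) were chosen with earlier results of these data known. Nothing says that mice were littermates or that arrays were run separately, so p-values measure the spread between these mice. Same-numbered mice deviated together for NOD WT and B6 WT (correlations 0.15, 0.14 and 0.25) and for NOD KO and NOD WT (0.67, 0.31 and 0.61), for 2 of 3 numbers of B6 KO and B6 WT (0.78, 0.72 and -0.13), but not for NOD KO and B6 KO (0.03, 0.16 and 0.01). Alternatives were other scalings, filters, fits, blocks, covariates and left-out mice.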

Additional observations from a re-analysis of the deposited data

Results flagged for a closer look

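For 29 named genes, the difference between NOD and B6 itself differed between the Aire KO and the WT mice by limma's test of that change (adjusted p under 0.05 over all probe sets). The values below are that change, the NOD minus B6 difference in KO mice minus the one in WT mice, on the log2 scale.

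The change was upwards for genes that are higher in NOD KO than in B6 KO mice. It was 2.85 for Fabp6, 2.23 for Muc15, 2.20 for Ankrd44, 2.19 for Elovl2, 2.02 for Sycp2l, 1.90 for Krt79, 1.84 for Serpina9, 1.77 for Aldh1a2, 1.47 for the peptidase Enpep, 1.28 for Chga and 1.29 for both Gstm5 and Gstm6. Gstm5 and Gstm6 are similar in sequence, so their values may not be independent.

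The change was also upwards where the strains differed mainly with Aire intact and NOD WT mice were the lower group. It was 2.89 for Gatm, 2.49 for Khdc1a, 2.20 for Dcpp3, 2.09 for Omt2a, 2.0 for Spx, 1.98 for Pramel27 and 1.85 for Nts, the peptide neurotensin. Nts read 5.39, 6.41 and 6.44 in NOD KO mice, against 5.94, 5.22 and 5.42 in B6 KO mice, and 10.30, 10.35 and 10.27 in NOD WT mice, against 11.62, 11.59 and 11.61 in B6 WT mice.

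The change was downwards for genes lower in NOD KO mice. It was -2.44 for 4833422C13Rik, -2.40 for Tafa2, -2.24 for 1700110I01Rik, -2.23 for 1700003P14Rik, -2.17 for Ctla4, -2.12 for Prg3, -1.79 for Dusp15 and -1.52 for Nkx6-2. The sign of the strain difference turned for Apoh (-2.26) and 6330403K07Rik (-2.05). B6 KO mice 2 and 3 enter all of these values, and 5 of the 26 genes given sensitivity values kept the call without them.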

How the results depend on the processing

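The 5 counts in question are the probe sets called between NOD KO and B6 KO mice (4514), those of 2-fold or more (1794), those called between NOD WT and B6 WT mice (3172), those with a changed strain difference (79) and those persisting in both genotypes (1897). With array weights they were 18867, 3191, 6244, 2356 and 4340. With only the 6 arrays of a genotype, the WT and persisting counts were 1355 and 890. With a replicate block they were 2147 for KO, 1077 for WT, 726 changed and 648 persisting, although same-numbered NOD KO and B6 KO mice did not deviate together. With the run of sample codes as a block they were 1269, 969, 553, 209 and 409. With the Gapdh covariate 6271 WT and 3445 persisting probe sets were called. With B6 KO mice 2 and 3 as 1 sample 2124 KO calls and 37 changes remained in number, and without both mice the counts were 800, 661 (2-fold), 13 (changed) and 597 (persisting), and 4.47% of the probe sets lower in BALB KO mice. An alternative chosen after seeing the data, without B6 KO mice 2 and 3 and B6 WT mouse 2, gave 943, 754, 2106, 21 and 647. At an adjusted p of 0.01 the counts were 2082, 1526 (WT), 26 and 898, and a test against a 1.5-fold difference called 602. With 1 mouse left out they ranged over 2153 to 7685, 1191 to 3234, 1973 to 3389, 38 to 98 and 1250 to 2378, with the highest KO counts, 7685 and 3234, without B6 KO mouse 1, and the lowest WT counts without NOD WT mouse 2 (1973) and B6 WT mouse 2 (2039). Of 3706 values of named genes over these alternatives 3705 kept their direction, the exception being Irf1 with 0.067 in the run pair. These genes had been called on the same arrays, so their direction could hardly turn, and the calls lost tell more. With the run block 71 of 164 gene calls were lost, among them the changes of Omt2a and Pramel27. The replicate block lost 43 of the 164. With the dendritic cell and macrophage covariate 17 gene calls were lost, among them Irf1, Cd80, Ccl8, H2-Aa, Trp63 and Ly86. Ly86 is itself among the markers averaged for the covariate, so its loss was largely given. The causes were not tested. The number of arrays and 1 probe set per gene limit all values.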

Other observations

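Among the 873 genes that differed by 2-fold or more, 9 had a dimmer probe set called with the opposite sign to the brighter one in the comparison of NOD KO with B6 KO mice. The secreted Wnt antagonist Sfrp1 had a log2 difference of 2.19 in its brightest probe set, and -0.89 and -2.35 in others. Prune2 had 1.62 and -2.38, the zinc finger gene Zfp991 had -1.63 and 1.73, and the mitochondrial tryptophanyl-tRNA synthetase Wars2 had -1.25 and 0.82. The DNA damage protein Trp53bp1 had 1.54, and -2.11 and -1.82. The syndecan Sdc4 had 1.17 and -1.06, the histidyl-tRNA synthetase Hars 1.01 and -1.20, the RNA-binding protein Pcbp2 -1.24 and 0.85, and the methyltransferase Setd3 1.01 and -0.69. In WT mice each probe set had the same sign as in KO mice (for example 2.39, -0.83 and -1.37 for Sfrp1, and -1.30 and 1.72 for Zfp991). Among named genes under 2-fold, Ctse likewise had -0.63 in its brightest and 3.06 in a dimmer probe set. A level of the gene as a whole cannot be read from these probe sets.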
